A study of Mus musculus with 15 samples.

Results

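The genes of cholesterol synthesis and of fatty acid synthesis were followed across 4 mouse tissues as a set of 38 listed genes that are driven by the sterol regulatory element binding proteins (SREBPs). The sterol arm holds 21 genes and the lipogenic arm 17. A probe was taken to measure a listed gene where the RefSeq accession in its annotation led to that gene's symbol. All 38 were found among the 15620 genes tested, of 20145 symbols on the array, and their probes were well above background on all 15 arrays.

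The study asked what hepatocytes build when they are placed under the capsule of the kidney. Neo-liver is the tissue that was microdissected from the kidney 250 to 300 days after 1000000 isolated hepatocytes of FVB/N donors aged 8 to 20 weeks, transgenic for human α1-antitrypsin, had been transplanted (n = 4). Host liver (n = 4) and host kidney (n = 4) are the liver and kidney of wild-type FVB/N recipients. These had received 2 intraperitoneal doses of monocrotaline, a plant toxin that injures the liver, of 70 mg/kg each and 2 weeks apart, from an age of 7 to 9 weeks, and were transplanted 2 weeks after the last dose. Control liver (n = 3) came from normal FVB/N mice 20 weeks old, with no toxin and no graft, whereas the recipients were 48 to 55 weeks old at sampling. All mice were female. The recipients kept their own liver, so the graft did not replace it. Age, toxin and graft all separate the recipients from the control livers and cannot be told apart. Samples with the same number in the 3 host tissues deviated from their group means together and are treated below as tissues of one recipient. The labels do not say whether each sample of a group was a separate animal, so p-values measure the spread between these samples. Nor do the labels used here give the feeding state or time of day at sampling.

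SREBPs are membrane-bound transcription factors. When cell sterols are low they are cut free and enter the nucleus, where the product of Srebf2 mainly switches on cholesterol synthesis and that of Srebf1 mainly fatty acid synthesis. INSIG proteins hold the precursors back in the endoplasmic reticulum when sterols are plentiful. In liver the lipogenic arm also answers to insulin, to the liver X receptors and to the carbohydrate-responsive factor ChREBP, and falls with fasting.

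Levels are given as log2 of the processed signal minus the 75th percentile of the array, so a level of 0 lies at that percentile, and levels of different genes cannot be set against each other. A difference of 1 on this scale is a doubling. A gene was called where its limma test over all genes gave a Benjamini-Hochberg adjusted p under 0.05. Hepatocyte markers were present in the liver tissues: 10 of 10 hepatocyte markers were above background on every neo-liver, host liver and control liver array. On every host kidney array 8 of the 10 were above background too, so detection alone does not set liver apart from kidney. The summed linear signal of the 10 markers was 3886 to 5702 in neo-liver, 6655 to 9549 in host liver, 6624 to 7078 in control liver and 17.9 to 36.1 in host kidney. From 30 of 31 kidney tubule markers, the share of kidney RNA was 20.6%, 49.3%, 18.5% and 35.7% in neo-liver arrays 1 to 4, and 0.00886% to 0.0433% in host liver. Neo-liver and control liver shared 1 slide, so their difference is a difference within a slide. Host liver lay on slides of its own (arrays 1 and 2 on slide 2, arrays 3 and 4 on slide 3), as did host kidney (slide 4), so for any comparison with these tissues slide and tissue cannot be told apart. These are bulk tissues, in which fewer cells of a type and less RNA per cell cannot be told apart.

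Control liver had the highest mean level of 20 of 21 sterol genes and 15 of 17 lipogenic genes. For 28 of the 38 genes the means ran in the order control liver, host liver, neo-liver, host kidney. The exceptions at the top were Cyp51, highest in host kidney, and Elovl5 and Fads1, highest in host liver. Over the 21 sterol genes, the median of the level minus the control liver mean was −0.68, −0.99, −1.57 and −2.07 on neo-liver arrays 1 to 4, −0.31, −0.45, −1.03 and −1.32 on host liver arrays 1 to 4, and −3.03 to −3.63 on host kidney arrays. Over the 17 lipogenic genes it was −1.26, −1.16, −2.004 and −1.93 in neo-liver, −0.66, −0.70, −1.69 and −1.23 in host liver, and −2.54 to −3.02 in host kidney. Each host array thus lay below every control liver array in both arms, the control livers ranging from −0.20 to 0.28 in the sterol and −0.18 to 0.13 in the lipogenic arm. The same median over all genes stayed between −0.17 and 0.08 on all arrays.

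**Figure D1:**
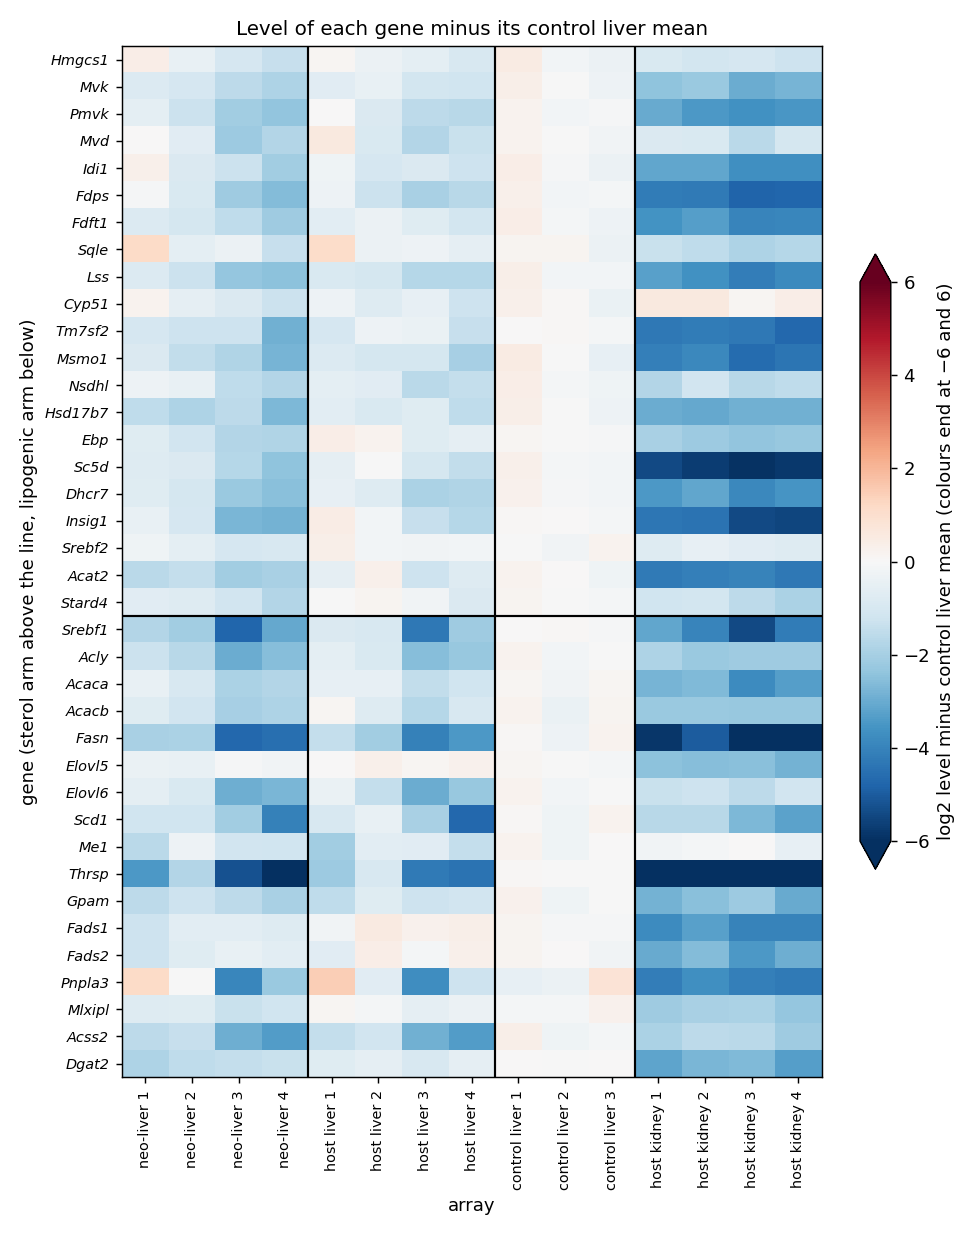
Heat map of the 38 genes (rows, sterol arm above the line and lipogenic arm below) on the 15 arrays (columns, by group and replicate number), coloured by the log2 level minus the control liver mean of the gene. Blue, lower than control liver, prevails in neo-liver and host liver and is deepest in host kidney, while colours end at −6, which Thrsp passes in neo-liver 4 and in host kidney and Fasn in host kidney 3 and 4, and Cyp51 and Me1 stay near the control liver level in host kidney.

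The sterol arm was lower in neo-liver than in control liver. Of its 21 genes 0 were called higher and 16 lower, against 20.4% of all genes higher and 29.8% lower, and all 21 differences were below 0. Their median was −1.38, beside −0.15 over all genes. With quantile normalization, which moved the median of all genes to −0.02, 13 were called lower and 1 of the 21 differences was above 0. Hepatocyte markers were also lower in this comparison (0 of 10 called higher, 6 lower, median −0.60). Subtracting the kidney share from the neo-liver signals gave 20 sterol genes called lower. What was left was not rescaled, so the subtraction could only lower the members in neo-liver and does not test the direction. The counts without neo-liver 2, the array with the highest kidney share, were 16 sterol and 14 lipogenic genes. The arrays left still had kidney shares of 18.5% to 35.7%, so the part of kidney RNA was not tested.

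Among the regulators, Srebf2 stood at −0.07, −0.39, −0.83 and −0.79 in neo-liver, 0.51, 0.01, −0.01 and 0.04 in host liver, 0.15, −0.01 and 0.40 in control liver, and −0.59 to −0.31 in host kidney. All 4 neo-livers lay below every control liver and every host liver. The difference from control liver was −0.70 ± 0.19 (SE; adjusted p = 0.00773). A second Srebf2 probe did not follow it: its difference was 0.12, so the Srebf2 call rests on 1 of 2 probes. Insig1, which encodes the sterol-sensing anchor and is itself a target of SREBPs, had levels of 2.82, 2.26, 0.49 and 0.40 in neo-liver, 3.71, 3.09, 1.87 and 1.54 in host liver, 3.31, 3.29 and 3.14 in control liver, and −2.27 to −1.07 in host kidney. The control livers were nearly level with each other, whereas neo-livers 3 and 4 lay far below neo-livers 1 and 2. Insig1 was 3.36-fold lower in neo-liver than in control liver (adjusted p = 0.0328). That call was lost, with adjusted p of 0.0667 to 0.0923, when any 1 of the 3 control livers or neo-liver 3 or 4 was left out.

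The early steps of the pathway lead to the isoprenoid precursors. Acat2, the cytosolic thiolase that joins acetyl-CoA units, had levels of 4.58, 4.80, 4.13 and 4.28 in neo-liver, 5.66, 6.52, 4.97 and 5.43 in host liver, 6.43, 6.24 and 5.96 in control liver, and 1.90 to 2.18 in host kidney. Neo-liver lay below both liver groups without overlap, with 3.39-fold less Acat2 than control liver (adjusted p = 0.000195). Pmvk, phosphomevalonate kinase, stood at 5.94, 5.25, 4.41 and 4.17 in neo-liver, 6.52, 5.65, 4.97 and 4.86 in host liver, 6.75, 6.35 and 6.46 in control liver, and 2.89 to 3.49 in host kidney. Its neo-livers were all below the control livers and 2.98-fold lower on average (adjusted p = 0.00756). The kinase gene Mvk was 2.50-fold lower and Fdps, farnesyl diphosphate synthase, 2.71-fold lower. The differences of Hmgcs1 (−0.62 ± 0.37), Mvd (−1.14 ± 0.54) and Idi1 (−0.98 ± 0.43) were not called. Neo-liver 1 lay in the control liver range for all 3, with an Hmgcs1 level of 7.499 and an Idi1 level of 6.04, and without it all 3 were called (adjusted p of 0.00364 to 0.0267). Fdps lost its call in 5 of the 7 runs that left out 1 array (adjusted p of 0.0584 to 0.102).

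Squalene is then made, oxidised and closed into the sterol rings. Lss, the lanosterol synthase, stood at 2.50, 2.03, 1.02 and 0.86 in neo-liver, 2.40, 2.28, 1.60 and 1.61 in host liver, 3.68, 3.14 and 3.15 in control liver, and −0.85 to 0.06 in host kidney. Neo-liver and host liver shared a range that lay wholly under control liver, and neo-liver was 3.30-fold lower than control liver (adjusted p = 0.00182). Fdft1, squalene synthase, was 2.60-fold lower (−1.38), while its second probe differed by only −0.48. Sqle, squalene epoxidase, differed by −0.28 ± 0.49 (adjusted p = 0.659), with neo-liver 1 at 5.80 above and neo-liver 4 at 3.28 below every control liver (4.31 to 4.82).

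The later steps trim lanosterol to cholesterol. Msmo1, the methylsterol oxidase, had levels of 6.13, 5.52, 5.22 and 4.23 in neo-liver, 6.19, 5.97, 5.97 and 5.03 in host liver, 7.51, 7.00 and 6.50 in control liver, and 2.37 to 3.14 in host kidney. Hsd17b7, the ketosterol reductase, stood at 1.73, 1.43, 1.69 and 0.56 in neo-liver, 2.62, 2.34, 2.52 and 1.74 in host liver, 3.61, 3.22 and 2.95 in control liver, and 0.18 to 0.39 in host kidney. Both genes were below control liver on all 4 neo-livers, and Hsd17b7 also below every host liver. Hsd17b7 had the largest difference of the arm, 3.75-fold lower than in control liver (adjusted p = 8.55e-05), and Msmo1 was 3.31-fold lower (adjusted p = 0.00291). Tm7sf2, a sterol reductase, had levels of 5.75, 5.51, 5.53 and 3.90 in neo-liver, 5.74, 6.47, 6.38 and 5.36 in host liver, 6.81, 6.85 and 6.63 in control liver, and 2.04 to 2.57 in host kidney. Neo-liver 4 stood apart from the other neo-livers, and the group was 3.01-fold lower than control liver (adjusted p = 0.00382). Dhcr7, which encodes the reductase of the last step from 7-dehydrocholesterol, stood at 3.64, 3.29, 2.13 and 1.87 in neo-liver, 3.89, 3.59, 2.47 and 2.55 in host liver, 4.62, 4.29 and 4.19 in control liver, and 0.49 to 1.24 in host kidney. Neo-liver was below control liver on every array and 3.10-fold lower (adjusted p = 0.00715). Ebp, Sc5d, Nsdhl and Stard4, the last a carrier of cholesterol inside the cell, were also called lower, by 1.99-fold to 2.73-fold. Cyp51, the lanosterol demethylase, differed by −0.61 ± 0.31 and was not called. Nsdhl lost its call in 4 of the 7 runs without 1 array (adjusted p up to 0.140), and Cyp51 was called without neo-liver 1 (adjusted p = 0.0158).

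The lipogenic arm was lower in neo-liver as well, with larger extremes. Of 17 genes 0 were called higher and 14 lower than in control liver, against 20.4% of all genes higher and 29.8% lower. All 17 differences were below 0 and their median was −1.54, beside −0.15 over all genes. With quantile normalization 9 of the 17 were called lower and 0 higher, and 1 difference was above 0. The 3 genes not called were Elovl5, Scd1 and Pnpla3. Adipocyte markers, of which 7 of 9 could be measured (Lep and Plin1 could not), summed to 7.48 to 83.9 in neo-liver, 2.78 to 4.63 in host liver, 3.16 to 3.95 in control liver and 24.3 to 52.0 in host kidney. Of these 7, 3 were called higher in neo-liver than in control liver, beside 20.4% of all genes. The highest sum was in neo-liver 4, which had the lowest Thrsp and Scd1 levels of the neo-livers. The counts without it were 13 lipogenic and 13 sterol genes. Adrenal cortex markers, of which 5 of 8 could be measured (the steroidogenic Cyp11a1, Cyp11b1 and Cyp11b2 could not), summed to 3.27 to 13.2 in neo-liver, 7.67 to 11.1 in host liver, 6.46 to 7.47 in control liver and 1.16 to 1.53 in host kidney. The part of these cells in the result was not tested.

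Srebf1, the regulator of the arm and a target of its own product, had levels of 0.70, 0.36, −2.30 and −0.58 in neo-liver, 1.60, 1.53, −1.81 and 0.35 in host liver, 2.49, 2.53 and 2.38 in control liver, and −2.96 to −0.63 in host kidney. The control livers lay within a narrow range above all 12 other arrays. Number 3 was the lowest sample of neo-liver, of host liver and of host kidney. Srebf1 was 7.59-fold lower in neo-liver than in control liver (adjusted p = 0.0107). Mlxipl, the gene of ChREBP, stood at 5.85, 5.93, 5.30 and 5.45 in neo-liver, 6.75, 6.53, 6.11 and 6.26 in host liver, 6.51, 6.51 and 6.88 in control liver, and 4.31 to 4.74 in host kidney. Neo-liver lay below both other liver groups without overlap, 2.00-fold below control liver (adjusted p = 0.000799).

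Acetyl-CoA for the arm comes from citrate through Acly and from acetate through Acss2. Acly had levels of 5.64, 5.24, 3.94 and 4.37 in neo-liver, 6.34, 5.97, 4.36 and 4.65 in host liver, 7.13, 6.73 and 6.87 in control liver, and 4.69 to 5.07 in host kidney. Acss2 stood at 4.61, 4.79, 3.25 and 2.84 in neo-liver, 4.78, 5.04, 3.29 and 2.86 in host liver, 6.56, 5.92 and 6.09 in control liver, and 4.04 to 4.61 in host kidney. Neo-livers 3 and 4 were below every host kidney for both genes, and all neo-livers below every control liver. Against control liver Acly was 4.31-fold lower (adjusted p = 0.0021) and Acss2 4.996-fold lower (adjusted p = 0.0034).

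Fasn, fatty acid synthase, had levels of 2.14, 2.18, −0.65 and −0.45 in neo-liver, 2.66, 2.00, 0.03 and 0.61 in host liver, 4.16, 3.76 and 4.29 in control liver, and −2.60 to −0.94 in host kidney. Neo-livers fell into a higher pair (1 and 2) and a lower pair (3 and 4), both under control liver. The mean was 9.62-fold lower in neo-liver (−3.27 ± 0.77, adjusted p = 0.00334). Thrsp, a lipogenic regulator that responds to thyroid hormone and carbohydrate, stood at 5.58, 7.26, 3.79 and 2.80 in neo-liver, 6.87, 8.05, 4.77 and 4.60 in host liver, 9.08, 9.02 and 8.98 in control liver, and −1.24 to 1.84 in host kidney. It showed the largest difference of all members, 18.03-fold lower in neo-liver than in control liver (−4.17 ± 1.08, adjusted p = 0.00588). The SD was 1.97 in neo-liver and 0.05 in control liver, and the fit uses 1 spread for all groups.

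Elovl6, the elongase of saturated chains, had levels of 4.67, 4.34, 2.33 and 2.53 in neo-liver, 4.85, 3.84, 2.26 and 2.97 in host liver, 5.48, 5.08 and 5.21 in control liver, and 3.67 to 4.13 in host kidney. It was 3.46-fold lower than in control liver (adjusted p = 0.0259), a call lost in 5 of the 7 runs without 1 array (adjusted p of 0.0511 to 0.0784). Scd1, the main liver desaturase, stood at 6.39, 6.35, 5.47 and 3.53 in neo-liver, 6.62, 7.10, 5.64 and 2.85 in host liver, 7.65, 7.29 and 7.77 in control liver, and 4.37 to 5.91 in host kidney. The sample numbered 4 was far below the others in both neo-liver and host liver, and all neo-livers were below control liver, yet the difference of −2.13 ± 0.90 was not called (adjusted p = 0.0624). Gpam, which starts glycerolipid synthesis, had levels of −1.20, −0.90, −1.22 and −1.57 in neo-liver, −1.15, −0.36, −0.90 and −0.78 in host liver, 0.60, 0.12 and 0.35 in control liver, and −2.67 to −1.82 in host kidney. The neo-livers were close together and 2.99-fold below control liver (adjusted p = 8.93e-05). The acetyl-CoA carboxylases Acaca and Acacb were 2.41-fold and 2.70-fold lower, and Dgat2, which makes triglyceride, 2.91-fold lower. Of the genes for polyunsaturated chains, Fads1 was 1.77-fold and Fads2 1.69-fold lower, and Elovl5 differed by −0.28 ± 0.13 (adjusted p = 0.0845). Me1, the malic enzyme that yields NADPH, was 2.09-fold lower. Fads2 and Me1 each lost the call in 3 of the 7 runs without 1 array (adjusted p up to 0.104), and Elovl5 gained one without neo-liver 3 (adjusted p = 0.0495). Pnpla3, a lipid droplet enzyme, ranged from −2.34 to 2.72 in neo-liver, from −2.15 to 3.05 in host liver and from 1.11 to 2.41 in control liver, and was not called (adjusted p = 0.389).

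**Figure D2:**
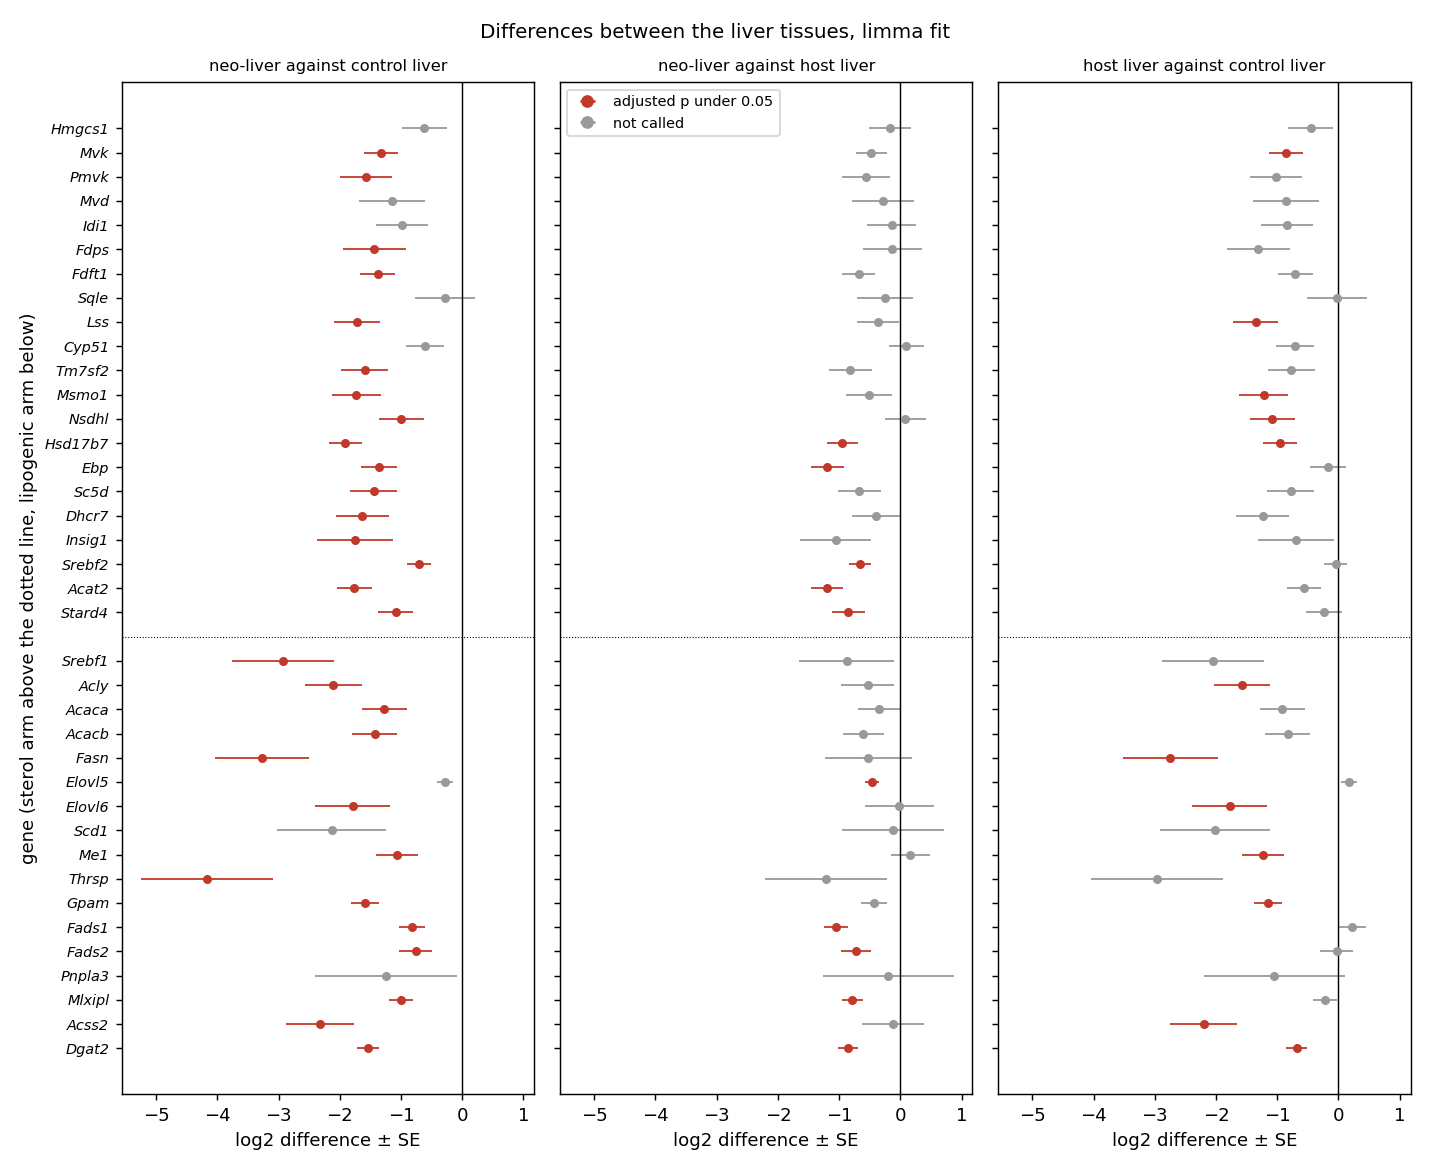
Log2 differences ± SE from the limma fit for the 38 genes, in 3 panels: neo-liver against control liver, neo-liver against host liver, and host liver against control liver. Red points have an adjusted p under 0.05 and grey points do not, and all points of the panel for neo-liver against control liver lie left of 0.

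Host liver was also lower than control liver in both arms. This comparison shares the control livers with the one before. Of the sterol genes 0 were called higher and 5 lower (Mvk, Lss, Msmo1, Nsdhl and Hsd17b7), and of the lipogenic genes 0 higher and 7 lower (Acly, Fasn, Elovl6, Me1, Gpam, Acss2 and Dgat2). Over all genes 13.4% were called higher and 11.2% lower. The median difference was −0.78 for the sterol arm and −1.16 for the lipogenic arm, beside 0.08 over all genes and 0.18 for the 10 hepatocyte markers, of which 1 was called higher and 1 lower. Fasn was 6.70-fold lower (−2.74 ± 0.77, adjusted p = 0.0209), Acss2 4.59-fold (adjusted p = 0.0119), Gpam 2.23-fold (adjusted p = 0.00333) and Lss 2.55-fold (adjusted p = 0.0187). For Thrsp the difference was −2.96 ± 1.08 (adjusted p = 0.0617) and for Srebf1 −2.05 ± 0.84 (adjusted p = 0.0903). The groups did not overlap for either, nor for 9 sterol and 11 lipogenic genes in all, each lower in host liver. Of all 15620 genes, 2500 were lower without overlap and 3359 higher. The number of calls was sensitive to single arrays: without control liver 1 it was 0 sterol and 2 lipogenic genes, without control liver 2 it was 1 sterol gene and without control liver 3 it was 3 lipogenic genes. Without host liver 1 it was 8 sterol genes, without host liver 3 it was 2 sterol and 4 lipogenic genes, and without host liver 4 it was 1 and 4. The median of the arm stayed between −0.91 and −0.57 for sterol genes and between −1.30 and −1.11 for lipogenic genes without any 1 array.

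Neo-liver was also set against the liver of the same hosts. Of the sterol genes 0 were called higher and 5 lower (Hsd17b7, Ebp, Srebf2, Acat2 and Stard4), and of the lipogenic genes 0 higher and 5 lower (Elovl5, Fads1, Fads2, Mlxipl and Dgat2). Over all genes 17.1% were called higher and 31.5% lower, so the share of members called lower was no larger than that of all genes. Medians were −0.51 and −0.52, against −0.21 over all genes and −0.88 over the hepatocyte markers, of which 7 of 10 were called lower and 0 higher. The largest called differences were those of Acat2 (−1.20 ± 0.26, adjusted p = 0.00227), Ebp (−1.19 ± 0.27, adjusted p = 0.0032) and Fads1 (−1.05 ± 0.20, adjusted p = 0.000858). Of the 4 lipogenic genes lowest against control liver, Thrsp differed from host liver by −1.21 ± 1.00, Fasn by −0.52 ± 0.71, Srebf1 by −0.87 ± 0.78 and Acss2 by −0.12 ± 0.51, and 0 of the 4 were called. The second Srebf2 probe differed by 0.30, and with the mean of the probes of a gene neither Srebf2 nor Hsd17b7 was called. Stard4 lost its call in 4 of the alternative settings and Fads2 in 5. Without neo-liver 1 the sterol count was 8. Quantile normalization gave 3 sterol genes and 1 lipogenic gene, and subtracting the kidney share gave 9 and 9. Among these 9 and 9 were Cyp51 and Me1, which differed by 0.10 and 0.17 without the subtraction. With it they differed by −2.77 (adjusted p = 0.0283) and −1.003 (adjusted p = 0.0245). Both genes had higher means in host kidney than in neo-liver, and the subtraction could only lower neo-liver. The counts after subtraction and these calls therefore do not test a difference from host liver.

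Compared within recipients, more genes were called, over all genes (8749 against 7591) as well as among the members. The fit with the replicate number as a block called 10 sterol genes, 0 higher and 10 lower, and 7 lipogenic genes, 0 higher and 7 lower, where 18.9% of all genes were called higher and 37.2% lower. It added Mvk (adjusted p = 0.00779), Fdft1 (0.0063), Tm7sf2 (0.0216), Sc5d (0.0423) and Insig1 (0.00301) in the sterol arm and Srebf1 (0.0157) and Thrsp (0.04999) in the lipogenic arm. With the mouse as a random block instead, the sterol genes gained their calls too, but Srebf1 and Thrsp did not. The second probe of Fdft1 differed by 0.07 in the fit without a block. For Insig1 the level in neo-liver minus that in host liver was −0.89, −0.84, −1.38 and −1.13 in recipients 1 to 4. For Srebf1 it was −0.90, −1.17, −0.49 and −0.94, lower in 4 of 4, although the levels themselves spanned over 3 log2 units in host liver. By contrast, the Acss2 differences were −0.17, −0.25, −0.04 and −0.02. In all, 12 of 21 sterol (57.1%) and 11 of 17 lipogenic genes (64.7%) were lower in neo-liver in 4 of 4 recipients. In neither arm was a gene higher in 4 of 4. Over all 15593 genes compared in this way, 46.9% were lower in all 4 and 3402 higher in all 4.

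The spread within the recipients had a common shape. Arrays 1 and 2 were both above arrays 3 and 4 for 18 of 21 sterol genes in neo-liver, 14 in host liver and 15 in host kidney, beside 15.3%, 16.8% and 18.8% of all genes in these tissues. The same held for 12, 11 and 6 of the 17 lipogenic genes. The opposite order was seen for 0, 0 and 1 sterol genes and for 3, 0 and 0 lipogenic genes, beside 16.9%, 14.5% and 12.6% of all genes. The median gap between the pairs was 1.15 in neo-liver, 0.74 in host liver and 0.35 in host kidney over the sterol genes, and 1.13, 0.99 and 0.18 over the lipogenic genes. Over all genes it was −0.02, 0.01 and 0.03. Insig1 had a gap of 2.09 in neo-liver, 1.70 in host liver and 1.09 in host kidney, Srebf1 1.98, 2.30 and 1.29, Scd1 1.88, 2.62 and 1.30, and Fasn 2.71, 2.01 and 1.09. Thrsp (3.12 and 2.78) and Pnpla3 (3.63 and 2.87) had the widest gaps in neo-liver and host liver. Fads1, Fads2, Dgat2, Elovl5 and Me1 did not follow, with gaps between −0.48 and 0.21 in these 2 tissues.

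This division of the recipients was seen in the data and is given as a description with no test. In host liver it is also the division between slides 2 and 3, whereas all neo-liver arrays shared slide 1 and all host kidney arrays slide 4. The kidney share was 20.6% and 49.3% on neo-liver arrays 1 and 2 and 18.5% and 35.7% on arrays 3 and 4. Hepatocyte marker sums were 5702 and 4038 against 4069 and 3886 in neo-liver, and 9549 and 8026 against 6655 and 7356 in host liver. The raw 75th percentile signal of the array was lower on arrays 1 and 2 (416 and 598 in neo-liver, 287 and 347 in host liver) than on arrays 3 and 4 (676 and 669 in neo-liver, 448 and 395 in host liver), while in host kidney the pairs overlapped. The part of these values in the result was not tested.

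**Figure D3:**
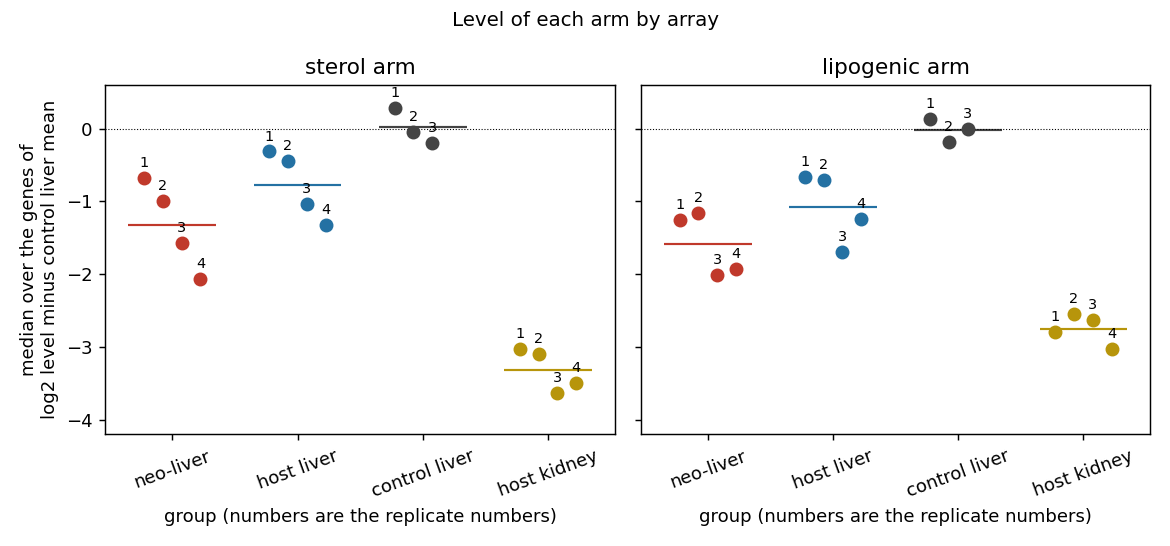
Level of the sterol arm (left) and the lipogenic arm (right) on each array, as the median over the genes of the log2 level minus the control liver mean. Points are arrays with their replicate number, lines are group means, and numbers 1 and 2 lie above 3 and 4 in neo-liver and host liver in both arms.

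**Figure D4:**
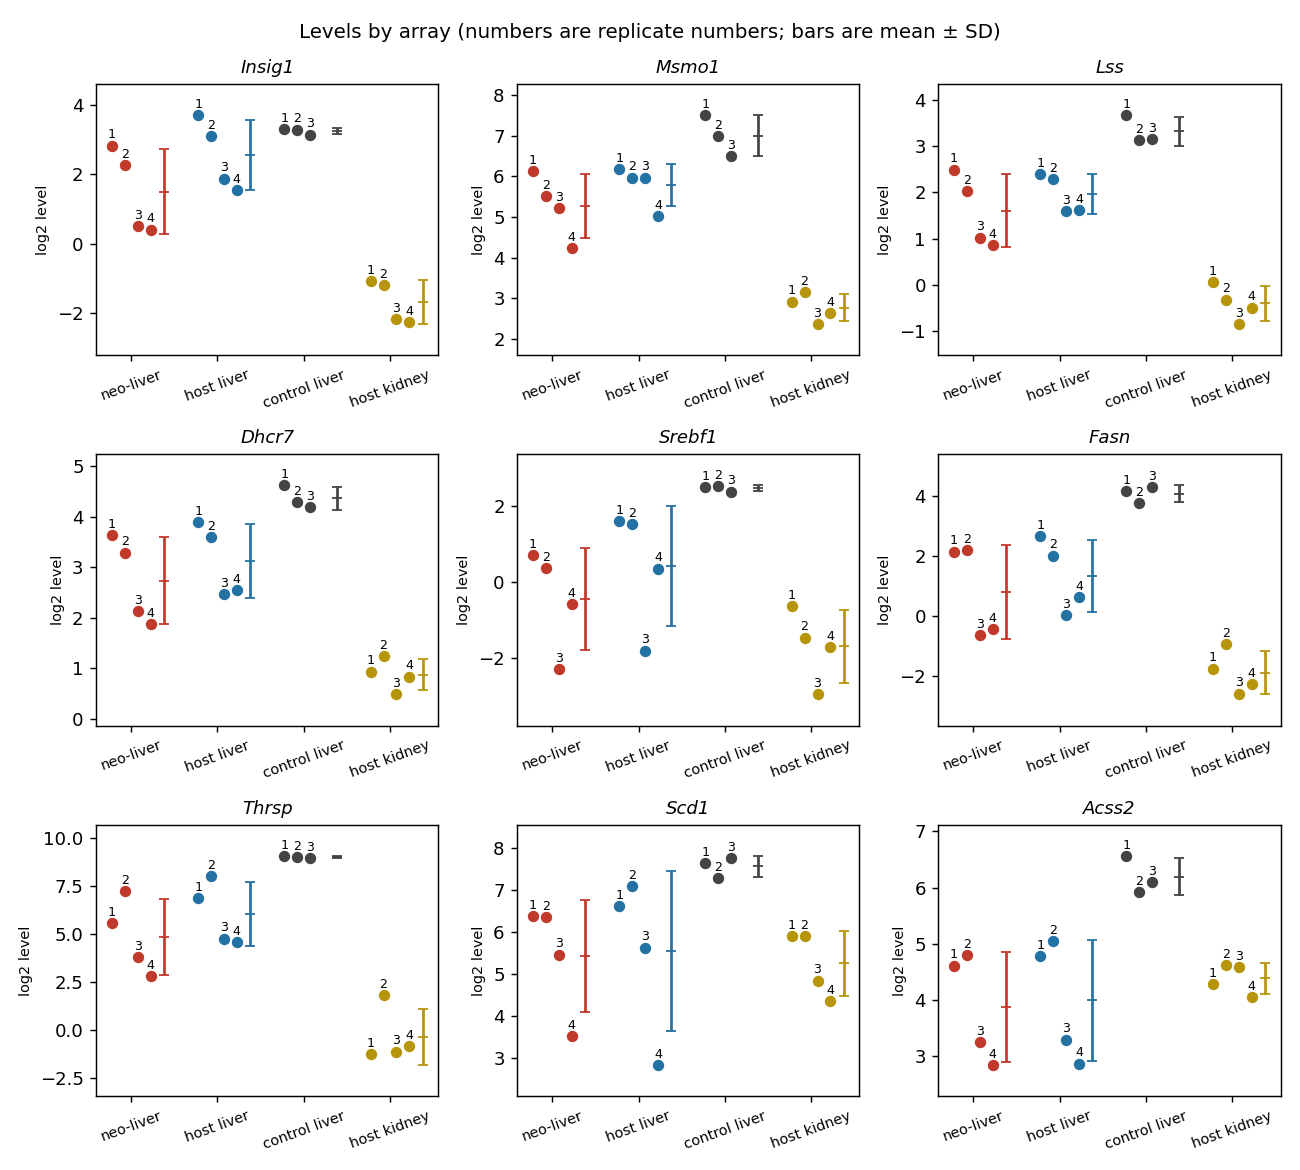
Log2 levels of 9 genes on every array in neo-liver, host liver, control liver and host kidney, with the replicate number at each point and the group mean ± SD beside the points. Control livers have the highest mean of each gene, although host liver 1 lies above all of them for Insig1. Their points are close together for Thrsp (SD 0.05) and wider apart for Msmo1 (SD 0.50). For Insig1, Srebf1, Fasn and Scd1 samples 1 and 2 lie above samples 3 and 4 in each host tissue.

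Against the kidney, both arms were higher in neo-liver. Of the sterol genes 15 were called higher and 1 lower, and of the lipogenic genes 10 higher and 1 lower, where 23.2% of all genes were called higher and 29.5% lower. Medians were 1.82 and 1.24, beside −0.09 over all genes. For host liver against host kidney the counts were 17 higher and 1 lower in the sterol arm and 12 higher and 1 lower in the lipogenic arm, with 39.6% of all genes higher and 31.2% lower, and the medians were 2.25 and 2.11. These comparisons share the kidney arrays. Thrsp was 36.7-fold higher in neo-liver (adjusted p = 0.000693) and 85.2-fold higher in host liver (adjusted p = 6.17e-05) than in host kidney. Sc5d, the sterol desaturase, was 19.1-fold higher in neo-liver (adjusted p = 4.11e-07) and 30.3-fold higher in host liver (adjusted p = 3.11e-08). Insig1 was 9.01-fold and 18.8-fold higher.

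The genes called the other way were Cyp51 and Me1. Cyp51 was 2.05-fold lower in neo-liver than in host kidney (adjusted p = 0.00876) and 2.19-fold lower in host liver (adjusted p = 0.00332). Me1 was 1.81-fold lower in neo-liver (adjusted p = 0.035) and 2.03-fold lower in host liver (adjusted p = 0.0104), but its 3 probes disagreed in sign for host liver, and the neo-liver call was lost in 6 of 8 runs without 1 array (adjusted p of 0.0621 to 0.103). Acly, Elovl6, Scd1, Acss2, Hmgcs1, Mvd and Nsdhl were called in neither comparison. Among them, Acss2 (−0.51), Elovl6 (−0.46), Mvd (−0.03) and Acly (−0.02) had differences below 0 in neo-liver. In host liver Elovl6 (−0.45) and Acss2 (−0.39) did, and the rest were above 0. Srebf2 differed from kidney by −0.03 ± 0.18 in neo-liver and by 0.63 ± 0.18 in host liver (adjusted p = 0.00609). Its second probe gave a difference of 1.79 in neo-liver.

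Because most members were lower together in neo-liver, the 250 bases before the start of transcription were searched for 3 motifs on both strands: TCACNCCAC, a core of the sterol regulatory element, CCAAT, the site of NF-Y, which works beside SREBPs, and CACGTG, the E-box that carbohydrate-responsive and other basic helix-loop-helix factors read. Windows for 31 of the 38 genes were available from RefSeq (GRCm38.p6). CCAAT was found in 15 of 17 sterol windows and 8 of 14 lipogenic windows, compared with 34.5% of 27025 windows of all genes. The 9-base TCACNCCAC was found in 1 sterol and 1 lipogenic window, compared with 1.04% of all, and CACGTG in 3 and 1, compared with 6.05%. A match is a description and not a binding site. The windows shown are the 2 with the 9-base motif (Hmgcs1 and Mlxipl) and those of Insig1, the sterol gene with the largest SD in neo-liver (1.23), and of Thrsp and Fasn, the lipogenic genes with the largest differences between neo-liver and control liver. Capitals mark the motifs, on either strand (CCAAT reads ATTGG on the other), and in Fasn CCAATTGG holds overlapping copies of both. The windows end at the base before the start of transcription and are written 5′ to 3′ on the gene's strand: Hmgcs1 at chr13:119690101-119690350, plus strand, Insig1 at chr5:28071162-28071411, plus strand, Fasn at chr11:120824548-120824797, minus strand, Thrsp at chr7:97417551-97417800, minus strand, Mlxipl at chr5:135106641-135106890, plus strand.
Hmgcs1: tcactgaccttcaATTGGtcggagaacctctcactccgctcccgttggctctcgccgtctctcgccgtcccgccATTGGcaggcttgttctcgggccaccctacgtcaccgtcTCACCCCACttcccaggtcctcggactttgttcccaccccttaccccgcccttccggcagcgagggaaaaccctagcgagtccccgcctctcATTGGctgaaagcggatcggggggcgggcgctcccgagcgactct
Insig1: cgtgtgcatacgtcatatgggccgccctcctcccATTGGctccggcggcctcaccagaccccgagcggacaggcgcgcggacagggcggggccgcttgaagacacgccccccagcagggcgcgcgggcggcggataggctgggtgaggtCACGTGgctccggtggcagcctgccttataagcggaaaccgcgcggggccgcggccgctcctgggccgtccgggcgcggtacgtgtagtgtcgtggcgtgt
Fasn: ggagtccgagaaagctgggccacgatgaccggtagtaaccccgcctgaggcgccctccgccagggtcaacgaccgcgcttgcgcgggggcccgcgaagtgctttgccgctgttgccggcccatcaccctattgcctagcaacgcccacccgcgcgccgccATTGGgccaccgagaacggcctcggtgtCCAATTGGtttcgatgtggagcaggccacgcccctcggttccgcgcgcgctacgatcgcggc
Thrsp: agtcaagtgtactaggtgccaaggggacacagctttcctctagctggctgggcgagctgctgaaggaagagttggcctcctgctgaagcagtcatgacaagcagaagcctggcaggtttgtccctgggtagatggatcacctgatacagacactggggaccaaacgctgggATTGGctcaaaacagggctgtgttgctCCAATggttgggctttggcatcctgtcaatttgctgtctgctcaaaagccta
Mlxipl: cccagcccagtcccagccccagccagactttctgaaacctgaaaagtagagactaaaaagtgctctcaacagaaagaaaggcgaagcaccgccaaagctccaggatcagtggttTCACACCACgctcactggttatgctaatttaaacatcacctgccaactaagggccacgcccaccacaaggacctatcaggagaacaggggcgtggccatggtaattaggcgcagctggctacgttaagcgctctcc

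In Hmgcs1 the TCACCCCAC match began 137 bases before the start, with ATTGG at 237, 176 and 45. In Mlxipl the TCACACCAC match began at 136 and no CCAAT was found in this window. Insig1 held CACGTG at 101 and ATTGG at 216, Fasn CCAAT or its reverse at 90, 62 and 59, and Thrsp at 79 and 52.

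Genes around the arms were followed in 6 further lists, to be read against the shares of all genes called: 20.4% higher and 29.8% lower for neo-liver against control liver, 17.1% and 31.5% for neo-liver against host liver, and 13.4% and 11.2% for host liver against control liver. Of 11 genes for SREBP processing and the liver X receptors, 0 were called higher and 4 lower in neo-liver than in control liver, with a median of −0.20, a share near that of all genes. The largest difference was that of Nr1h3, the liver X receptor α gene (−1.03 ± 0.11, adjusted p = 8.21e-06), followed by Rnf139 (−0.63 ± 0.14, adjusted p = 0.00253). Against host liver 1 was called higher and 7 lower, led by Insig2 (−1.12 ± 0.33, adjusted p = 0.0135) and Nr1h3 (−0.89 ± 0.10, adjusted p = 2.04e-05). In host liver against control liver 3 were called higher, led by Erlin1 (0.62 ± 0.16) and Nr1h2 (0.44 ± 0.10), and 1 lower. Ubxn4 was the gene called higher in neo-liver against host liver and lower in host liver against control liver, and its probe was well above background on only 1 of 4 host liver arrays.

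Of 12 further SREBP targets and isoprenoid branch genes, 0 were called higher and 4 lower in neo-liver than in control liver (median −0.35), again near the share of all genes. Aacs, which uses acetoacetate for lipid synthesis, was 7.45-fold lower in neo-liver (adjusted p = 0.00496) and 6.85-fold lower in host liver (adjusted p = 0.0151) than in control liver. Por, the electron donor of the sterol demethylase, was 2.43-fold lower in neo-liver (adjusted p = 0.0257). Of these 12 genes 0 were called higher and 2 called lower in neo-liver against host liver, and 0 and 2 in host liver against control liver.

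Of 13 genes that feed carbon and NADPH into lipogenesis, 3 were called higher and 10 lower in neo-liver than in control liver (median −0.96), 1 higher and 5 lower against host liver, and 0 higher and 6 lower in host liver against control liver. Pfkfb1, a glycolytic regulator, was 3.19-fold lower in neo-liver (adjusted p = 0.00135) and 2.47-fold lower in host liver (adjusted p = 0.016) than in control liver. The genes called higher were led by Acss1, the mitochondrial acetyl-CoA synthetase (7.43 ± 0.30), and Pdk4, a brake on pyruvate oxidation (2.29 ± 0.81, adjusted p = 0.0303). Of 16 proximal tubule markers 15 were called higher in the same comparison (median 9.08), and of 15 markers of the later tubule segments 15 were (median 5.41). The part of kidney RNA in the differences of this and the other context lists was not tested.

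Of 12 other elongases and desaturases, neo-liver had 3 called higher and 4 called lower than control liver, led by Elovl7 (6.31 ± 0.40) and Fads3 (2.83 ± 0.25) upward and by Scd3 (−2.73 ± 0.85) and Tecr (−0.998 ± 0.15) downward. These counts were near the shares of all genes, and the kidney markers were higher in the same neo-livers. Scd3 was also 6.01-fold lower in host liver than in control liver (adjusted p = 0.0411). Of 18 triglyceride and lipid droplet genes, 3 were called higher and 5 called lower, about the shares of all genes, with Mogat2 (3.11 ± 0.48) and Mogat1 (1.41 ± 0.43) higher and Lpin1 (−2.01 ± 0.55) and Plin5 (−1.84 ± 0.64) lower. In host liver against control liver only Pparg of these 18 was called, 2.25-fold higher (adjusted p = 0.00669). Of 16 measured genes for cholesterol esterification, efflux and transport, 1 was called higher in neo-liver than in control liver (Mylip, 0.70 ± 0.22) and 7 were called lower, led by Cyp27a1, the sterol 27-hydroxylase (−1.65 ± 0.31), and Lcat (−1.18 ± 0.19). In host liver against control liver Cyp27a1 alone was called (−1.02 ± 0.31, adjusted p = 0.0307).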

How the data were processed

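RNA of 15 tissues was measured on one-colour Agilent arrays. Intensity values per spot were deposited as written by Agilent Feature Extraction (version 10.10.1.1, per the submitters' processing notes), whose processed signal is background-subtracted and detrended within the array, per the file headers. The deposited series table holds log2 values within 0.01 of log2 processed signal minus 1 constant per array for 99.8% of probes, and was used as an alternative. Here the log2 processed signal minus the array's 75th percentile was analysed. Control and outlier spots were left out, probes kept if well above background on every array of a group (34990 of 55681), and the brightest probe per gene was taken. All arrays entered 1 limma fit (R 4.3.3, limma 3.58.1) with a mean per group and 11 residual degrees of freedom, checked on simulated data. Adjusted p are Benjamini-Hochberg, two-sided, over 15620 genes of a comparison. Members and lists were chosen with earlier results of these data known. Per-array values are given for the 8 genes of each arm with the largest difference among the liver tissues and for Srebf1, Srebf2, Insig1 and Mlxipl, and for each context list the called genes with the largest differences, of which 1 is not reported here. Residuals of same-numbered samples correlated across genes (r of 0.41 to 0.58 for neo-liver and host liver, 0.25 to 0.44 and 0.18 to 0.33 with host kidney), so the numbers were taken to pair the host tissues, and a replicate block was an alternative, beside other scalings, background correction, filters, probe rules, blocks, subtraction of the kidney share and leaving out single arrays. Array number and signal over background limit the precision.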

Additional observations from a re-analysis of the deposited data

Results flagged for a closer look

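In groups of 4 arrays, a sample was picked out where its gap to the nearest other array took up most of the range of the group (Dixon's test). Chance picks about 1 in 20 groups, and 5 of 120 were picked. Tm7sf2 stood at 3.90 in neo-liver 4, where the other neo-livers reached from 5.51 to 5.75, and at 2.04 in host kidney 4, where the others began at 2.48. Sqle in host liver 1 was at 5.75, above the next host liver at 4.35. Srebf2 in host liver 1 was at 0.51, above the next at 0.04. Thrsp in host kidney 2 was at 1.84, above the next at −0.84.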

How the results depend on the processing

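Over the 38 genes, the 5 comparisons and all settings, 3357 results kept their direction and their side of the threshold (a difference called under neither setting counted as kept), 74 gained a call, 137 lost one and 4 reversed. The counts that moved by over 1.5 times were these. For neo-liver against host liver (5 sterol and 5 lipogenic genes called), quantile normalization gave 3 sterol genes and 1 lipogenic gene, the mean of the probes 3 sterol genes, median centring 9 sterol genes, and subtraction of the kidney share 9 sterol and 9 lipogenic genes. The replicate block gave 10 sterol genes, as did the mouse as a random replicate block (10). For neo-liver against control liver, quantile normalization gave 9 lipogenic genes. For host liver against control liver (5 sterol and 7 lipogenic genes), sterol counts were 3 with quantile normalization and 2 each with median centring, no filter on dim probes, slide as a random block and a fit of the 2 groups alone, and that last fit gave 4 lipogenic genes and 2520 of all genes. Leaving out 1 array at a time gave, for neo-liver against host liver, 4 to 8 sterol genes, and for host liver against control liver 0 to 8 sterol genes, 2 to 8 lipogenic genes and 2275 to 4162 of all genes, against 3853. Outside these, the block also called Stard4, Srebf1 and Acacb for neo-liver against host kidney and Hmgcs1 for host liver against host kidney. Reversed differences were those of Cyp51 (−2.77) and Me1 (−1.003) in neo-liver against host liver with the kidney share subtracted, Elovl5 in the same comparison with quantile normalization (0.022), and Srebf2 in neo-liver against host kidney with the mean of its probes (0.88). The probes of Srebf2 disagree. The subtraction of the kidney share could only lower members in neo-liver, so its counts and reversals cannot test a direction. Other causes were not tested. Of all calls, the share higher was 52.24% with quantile normalization against 40.63% for neo-liver against control liver, and 50.85% with quantile normalization, 23.11% with median centring and 24.68% with normexp against 35.17% for neo-liver against host liver. For host liver against control liver it was 73.17% with median centring against 54.45%. Median centring moved the median of all genes to −0.41 for neo-liver against host liver, to 0.22 for host liver against control liver and to 0.36 for host liver against host kidney.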
